A study of Mus musculus with 9 samples.

Results

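The ligands of the ErbB receptors were followed in mammary tumours of BlgCre-NeuKI mice. All genes of the tables whose symbol is Nrg1, Nrg2, Nrg3, Nrg4, Egf, Tgfa, Areg, Ereg, Btc or Hbegf were taken, and each of these 10 genes had 1 row among the 18484 genes listed. In these mice Cre recombinase is driven by the beta-lactoglobulin (Blg) promoter, which is active mainly in luminal oestrogen receptor-negative cells. Cre removes a floxed stop cassette from a knocked-in allele, so that an activated rat Neu (NeuNT) is expressed from the Erbb2 locus. The mice carried this allele in 1 copy on a mixed FVB and C57Bl6 background, and all 9 tumours share it. Their ages are not given in the sources used here.

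RNA was sequenced from 1 library per tumour. The 5 tumours labelled as high-amplified at the NeuNT/Erbb2 locus were adenocarcinomas of no special type, AC(NST). The study's methods of measuring copy number differed for a pair of them: MS1218.2 was high by qPCR but not by exome sequencing or droplet digital PCR, and MS1213.1 was low by droplet digital PCR alone. Both were kept in their labelled group, and results on amplification refer to these labels. Virgin mice gave MS1213.1, MS1163.1 and MS1163.2, while MS1218.2 with MS1155.3 arose in parous animals. The other 3 epithelial tumours were not/low-amplified and also arose in parous animals. Of these, MS1210.1 and MS1349.1 were metaplastic adenosquamous carcinomas (ASQC), and MS1166.1 was an AC(NST). MS1156.1 was a sarcoma of a parous mouse, labelled not/low-amplified. Every virgin tumour was high-amplified and both ASQC tumours were not/low-amplified, so amplification, parity and histotype cannot be told apart in full. The labels number MS1163.1 and MS1163.2 as tumours of 1 mouse.

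ErbB ligands are made as membrane-bound precursors and are mostly released by metalloproteases. They fall into groups by the receptors they bind. Egf, Tgfa and Areg (amphiregulin) bind Egfr. Btc (betacellulin), Ereg (epiregulin) and Hbegf (heparin-binding EGF-like growth factor) bind Egfr and Erbb4. The neuregulins, Nrg1 to Nrg4, bind Erbb3, Erbb4 or both. Erbb2 has no known soluble ligand and acts as the partner of the other receptors. In the mammary gland amphiregulin is known for its part in ductal growth at puberty, and neuregulins for their part in lobular and alveolar development.

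Between 12501225 and 23912429 reads were counted per tumour. Normalized counts are these reads divided by the size factor of the tumour. A count of 3, taken here as the floor of detection, corresponded to a normalized count of between 2.11 and 4.19. Luminal markers (Krt8, Krt18, Krt19, Epcam, Cdh1, Elf5 and Kit) summed to between 45548 and 67019 normalized counts in high-amplified and between 84278 and 147668 in not/low-amplified epithelial tumours, none of the 7 being at 0, and to 893 in the sarcoma. MS1218.2 had the highest sums of fibroblast (380384), endothelial (14081) and macrophage (39040) markers of the 8, and it is the exception to the tumour purity that the study states for its samples. MS1349.1 had the highest sum of milk protein genes, at 1.23e+06. In bulk tissue, fewer cells of a type and less RNA per cell cannot be told apart.

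Promoter sequences are shown for the ligands whose levels stand out below and which the reference table holds: Areg and Btc, neighbours on chromosome 5 that differed in 1 tumour, Tgfa, the ligand with the largest share of the ligand mRNAs, and Nrg4, the only neuregulin above the floor with an entry. The windows are from RefSeq on GRCm38.p6 and run from 250 bases before a start site to 50 after it, 5′ to 3′ on the gene's strand. The Areg window is chr5:91139349-91139648 on the plus strand and that of Btc is chr5:91402945-91403244 on the minus strand. The Tgfa window is chr6:86194972-86195271 on the plus strand and that of Nrg4 is chr9:55283576-55283875 on the minus strand. The Nrg4 window is at an internal start site, 43.2 kb downstream of the start of the gene in GENCODE, while the other windows lie within 1 base of it. Capitals mark matches, on either strand, to the TATA box (TATAAA), the cAMP response element (TGACGTCA), the AP-1 site (TGANTCA), the GC box (GGGCGG) and the CCAAT box (CCAAT).
Areg: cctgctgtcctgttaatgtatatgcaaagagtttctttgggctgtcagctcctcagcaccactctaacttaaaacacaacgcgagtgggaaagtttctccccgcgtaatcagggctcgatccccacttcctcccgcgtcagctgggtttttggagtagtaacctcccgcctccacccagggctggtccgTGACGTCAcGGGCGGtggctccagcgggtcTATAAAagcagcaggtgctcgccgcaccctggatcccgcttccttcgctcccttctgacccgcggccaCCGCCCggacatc
Btc: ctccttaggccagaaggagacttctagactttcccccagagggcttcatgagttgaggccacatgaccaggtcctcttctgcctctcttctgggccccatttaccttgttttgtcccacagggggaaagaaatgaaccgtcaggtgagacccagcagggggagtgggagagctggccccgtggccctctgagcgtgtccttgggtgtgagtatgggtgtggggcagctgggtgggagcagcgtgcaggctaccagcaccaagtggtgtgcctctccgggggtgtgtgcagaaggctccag
Tgfa: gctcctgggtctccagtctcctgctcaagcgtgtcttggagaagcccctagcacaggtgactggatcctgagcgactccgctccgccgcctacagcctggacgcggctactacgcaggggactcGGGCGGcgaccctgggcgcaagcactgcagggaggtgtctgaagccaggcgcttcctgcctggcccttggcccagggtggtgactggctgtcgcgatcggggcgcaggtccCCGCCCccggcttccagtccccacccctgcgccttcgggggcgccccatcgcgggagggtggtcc
Nrg4: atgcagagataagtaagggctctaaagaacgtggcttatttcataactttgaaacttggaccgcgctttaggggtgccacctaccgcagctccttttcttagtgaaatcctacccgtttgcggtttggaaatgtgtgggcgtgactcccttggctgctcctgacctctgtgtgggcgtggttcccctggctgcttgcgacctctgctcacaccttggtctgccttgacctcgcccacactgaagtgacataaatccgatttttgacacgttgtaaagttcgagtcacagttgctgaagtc
The Areg window held a cAMP response element that begins 61 bases before the start and a TATA box that begins 31 bases before it. Of 32851 promoter windows of 300 bases in the table, 1.79% held TGACGTCA and 13.6% held TATAAA. Areg also held 2 matches to the GC box, as did Tgfa, and 35.7% of all windows held at least 1. None of the matches overlapped another. No match to any of the 5 motifs was found in the Btc or Nrg4 window, which says only that these letters are not in these windows. AP-1 sites were found in 7.81% and CCAAT boxes in 37.4% of all windows, and in none of the 4 shown. The GC content was 59.3% for Areg, 60.3% for Btc, 70.7% for Tgfa and 51.0% for Nrg4, against a median of 52.7% over all windows.

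To compare the ligands with one another, normalized counts were divided by the length of all exons of the gene together. On this per-kb scale, Tgfa made up 30.9% ± 9.0 (SD, n = 8) of the 10 ligand mRNAs in the epithelial tumours and Hbegf 19.2% ± 4.64. Nrg2 made up 16.5% ± 13.3, Areg 15.5% ± 10.9 and Btc 11.2% ± 9.55, and these neighbours in the order do not differ beyond their spread. Nrg1, Nrg4, Ereg and Egf each made up between 1.39% and 2.08% on average, and Nrg3 0.0151%. Tgfa ranked first in 4 of the 8 tumours, Nrg2 in MS1213.1 and MS1218.2, Areg in MS1210.1 and Btc in MS1166.1. With the longest coding transcript as the length, Tgfa ranked first in 4 tumours and Hbegf in the other 4, so that the first place depended on the length used.

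The composition of the ligand mRNAs differed between the groups in its neuregulin part. On the per-kb scale the 4 neuregulins together made up 30.8% ± 7.02 (SD, n = 5) of the ligands in high-amplified tumours, between 20.4% and 37.5%. In the 3 not/low-amplified epithelial tumours they made up 2.83% ± 1.80, between 1.20% and 4.77%. The groups did not overlap, and with longest coding transcripts the shares were 27.0% ± 6.45 and 2.82% ± 1.34. The summed per-kb level of the 6 other ligands was 353 ± 47.9 in high-amplified tumours and 321 ± 126 in not/low-amplified tumours, and here the groups overlapped. Nrg2 made up between 18.1% and 33.0% of the ligands in high-amplified tumours and at most 4.19% in the others. Of the summed neuregulin level it made up at least 64.5% in each high-amplified tumour, 87.9% in MS1166.1 and 54.3% in MS1210.1. In MS1349.1 Nrg4 came first, at 47.6%, and Nrg2 made up 29.8%.

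**Figure D1:**
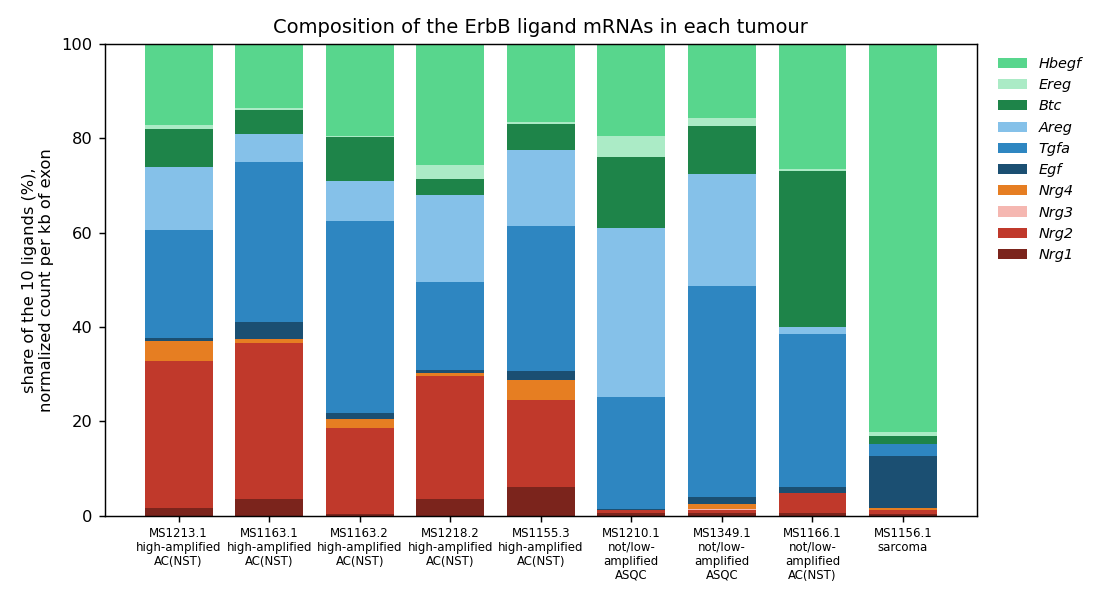
Share of each of the 10 ligands (%, vertical axis) in the summed normalized count per kb of exon, for each tumour (horizontal axis). The neuregulins (reds and orange) take between 20.4% and 37.5% of each bar in the high-amplified tumours, at most 4.77% in the not/low-amplified epithelial tumours and 1.63% in the sarcoma, where Hbegf takes 82.3%.

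Whether ligand mRNAs differed with amplification of the locus was tested in 5 high-amplified against 3 not/low-amplified epithelial tumours. Nrg2 was about 30-fold higher in high-amplified tumours and was the only ligand called. Nrg1 and Nrg4 did not pass the adjusted test, although 4 of the 5 high-amplified tumours lay above every other epithelial tumour for each. None of the 6 ligands of Egfr was called in either direction. A gene was called when its adjusted p in edgeR's quasi-likelihood test was under 0.05 and its fold change over 2. Of the 10 ligands 9 passed the filter on low counts and 1 of these was called, where 0.921% of all 14007 genes tested were called (0.435% higher and 0.485% lower with amplification). For the 9, the median log2 fold change was 0.52, against 0.02 over all genes tested.

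Nrg2 (chromosome 18, 36017652 to 36197380, minus strand; GRCm38) encodes neuregulin 2, a ligand of Erbb3 and Erbb4. MS1163.1 had the most, 656 normalized counts, then MS1213.1 with 482, MS1218.2 with 346, MS1155.3 with 299 and MS1163.2 with 283. Far below were MS1166.1 with 26.2, MS1210.1 with 9.14 and MS1349.1 with 8.04. The groups did not overlap, and the lowest high-amplified tumour lay 10.8-fold above the highest of the others. Groups that did not overlap in this direction were found for 7.55% of all genes tested. The log2 fold change was 4.89 (SE 0.58, 95% interval 3.59 to 6.20), with an adjusted p of 0.0175 in edgeR, and Nrg2 ranked 6 of all genes by p. Among the parous tumours alone (2 against 3) it was 4.56 with an adjusted p of 0.239, and with parity as a covariate 4.54 with an adjusted p of 0.102. In these fits no gene of the whole table was called. Among AC(NST) tumours alone, where MS1166.1 was the single not/low-amplified tumour and is assumed to vary like the others, it was 3.95 (SE 0.79) with an adjusted p of 0.0853. Without MS1210.1 it was 4.61 with an adjusted p of 0.0695, and without MS1218.2 it was 4.96 with an adjusted p of 0.0124. Without MS1218.2 and MS1213.1 together, the tumours on which the copy number methods differed, it was 4.89 with an adjusted p of 0.0281.

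Levels of epithelial cell type markers were also compared between these tumours. The luminal sums given above did not overlap, being lower in high-amplified tumours, and 3 of the 7 luminal genes did not overlap in this direction, as for 8.04% of all genes. Basal and myoepithelial markers summed to between 1368 and 13601 normalized counts in high-amplified and between 13415 and 58715 in not/low-amplified tumours, with none of the 7 at 0. Squamous markers summed to between 17.4 and 453 against between 76.1 and 17779, with up to 4 of the 7 at 0 in a high-amplified and up to 2 in a not/low-amplified tumour. In edgeR 0 genes of these 3 lists were called by amplification, of 7 luminal, 7 basal and 2 squamous genes tested, against 0.921% of all genes. Of these genes 3 luminal, 2 basal and 2 squamous had an unadjusted p under 0.05, as did 22.8% of all genes. Their part in the Nrg2 difference was not tested.

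Nrg1 (chromosome 8, 31814551 to 32884029, minus strand) encodes neuregulin 1, the best known ligand of Erbb3. MS1155.3 led with 317 normalized counts, before MS1163.1 with 231, MS1218.2 with 155 and MS1213.1 with 85.7. MS1210.1 followed with 21.8, then MS1163.2 with 21.1, MS1349.1 with 19.0 and MS1166.1 with 11.9. High-amplified tumours thus varied 15.0-fold among themselves, and MS1163.2 alone reached into the range of the other group. On the log2 scale the groups differed by 3.20 (SE 0.84), with an adjusted p of 0.0826 in edgeR.

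Nrg4 (chromosome 9, 55220222 to 55326844, minus strand) encodes a short neuregulin that binds Erbb4. MS1155.3 had 133 normalized counts, MS1213.1 had 127, MS1163.2 had 57.2, MS1163.1 had 35.7 and MS1218.2 had 17.6. Of the other group, MS1349.1 had 24.8, MS1210.1 had 2.11, which is its floor, and MS1166.1 had 0, where the floor is 3.57. The groups overlapped through MS1218.2 and MS1349.1. On average the log2 fold change was 2.99 (SE 1.24), with an adjusted p of 0.189 in edgeR. Exons of Nrg4 overlap those of Fbxo22 on the annotation, so its counts may lack or share reads there.

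Nrg1, Nrg2 and Nrg4 were the 3 ligands with an unadjusted p under 0.05 by amplification in edgeR, which was reached by 22.8% of all genes and by 11.8% with a higher level in high-amplified tumours. DESeq2 called all 3, with adjusted p-values of 0.000592 for Nrg1, 1.1e-17 for Nrg2 and 0.0369 for Nrg4. It called 8.82% of the 18039 genes to which it gave a p-value. This base includes genes left without an adjusted p, such as Nrg3, which could not be called. The other shares given for DESeq2 are likewise of the genes with a p-value. Nrg3 (chromosome 14, 38368952 to 39473088, minus strand), which is best known from the nervous system, had at most 2 counts in any tumour and 0 in 5 of the 9. All its values were at or under the floor, and no difference was detectable at this depth.

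**Figure D2:**
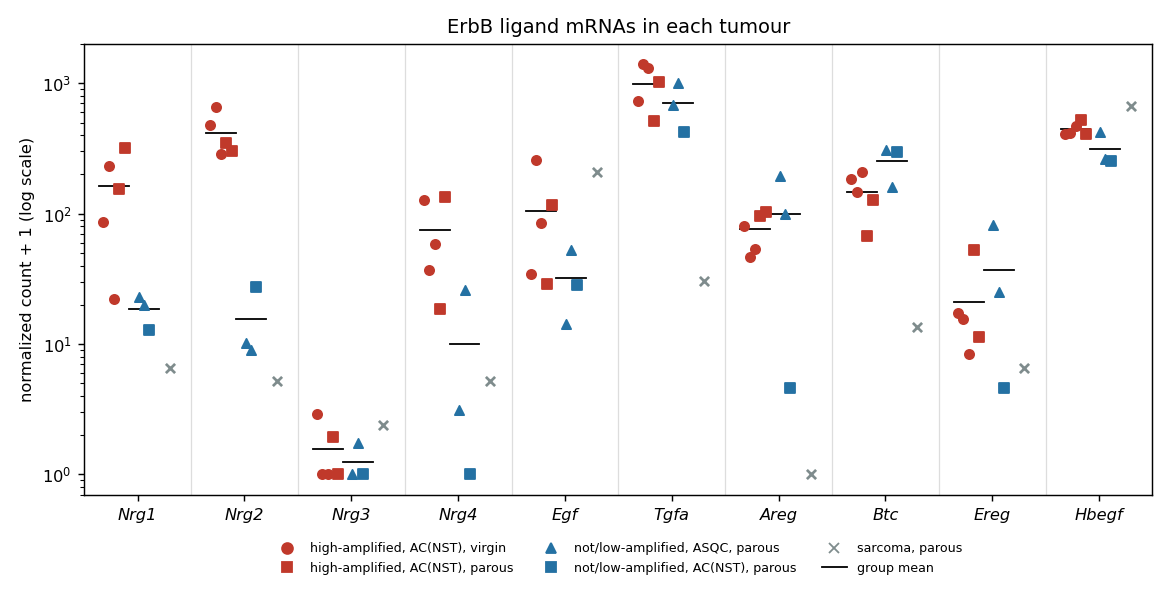
Normalized count + 1 (vertical axis, log scale) of each ligand in each tumour, with high-amplified tumours in red, not/low-amplified epithelial tumours in blue and the sarcoma as a grey cross. Symbols give parity and histotype, and black lines give the group means. For Nrg2 every red point lies above every blue one, from 283 against 26.2, whereas the colours overlap for the other ligands.

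Tgfa (chromosome 6, 86195223 to 86275719, plus strand) encodes transforming growth factor alpha. Its normalized counts were 730.0, 1393, 1314, 511 and 1023 in MS1213.1, MS1163.1, MS1163.2, MS1218.2 and MS1155.3. The other group had 997 (MS1349.1), 684 (MS1210.1) and 419.9 (MS1166.1). The groups overlapped and all 8 tumours lay within 3.32-fold of one another. The log2 fold change was 0.51 (SE 0.40, 95% interval -0.39 to 1.42), with an adjusted p of 0.469 in edgeR.

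Egf (chromosome 3, 129677565 to 129755316, minus strand), the founding member of the family, ranged from 27.8 to 258 normalized counts in high-amplified tumours with a median of 83.3. MS1349.1 had 51.9, MS1166.1 had 27.4 and MS1210.1 had 13.4. The groups overlapped, with a log2 fold change of 1.75 (SE 0.84) and an adjusted p of 0.248 in edgeR. Egf was highest in MS1163.1 and then in MS1155.3. The same 2 tumours led for Nrg1 and for the receptor Erbb4, with MS1155.3 first, at 945 normalized counts of Erbb4 in MS1155.3, 623 in MS1163.1 and at most 68.5 in the other 6 epithelial tumours.

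Hbegf (chromosome 18, 36504927 to 36515805, minus strand) varied least among the ligands above the floor, by 2.06-fold over the 8 epithelial tumours. Its normalized counts were 408, 412, 469, 524 and 409.6 in MS1213.1, MS1163.1, MS1163.2, MS1218.2 and MS1155.3. The other group had 421 (MS1210.1), 261 (MS1349.1) and 255 (MS1166.1). MS1210.1 lay among the high-amplified tumours and the other two not/low-amplified tumours lay below them. The log2 fold change was 0.52 (SE 0.27, 95% interval -0.09 to 1.14), with an adjusted p of 0.285 in edgeR.

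Ereg, Areg and Btc lie next to each other on chromosome 5, with the further ligand Epgn (epigen, an Egfr ligand that was not among the 10) before them. Epgn spans 91027464 to 91035215, Ereg 91074622 to 91093646 and Areg 91139599 to 91148432, all on the plus strand, and Btc spans 91357261 to 91402994 on the minus strand. No other protein-coding gene lies between Ereg and Btc, which together span 328 kb.

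Areg had 79.9, 45.1, 52.2, 95.3 and 102 normalized counts in MS1213.1, MS1163.1, MS1163.2, MS1218.2 and MS1155.3, against 194 (MS1210.1), 98.6 (MS1349.1) and 3.57 (MS1166.1). Ereg had 16.4, 14.7, 7.46, 51.8 and 10.3 in the high-amplified tumours in the same order, against 80.2, 24.1 and 3.57. Epgn had between 6.74 and 21.3 in high-amplified tumours, against 40.1, 27.0 and 3.57. All 3 genes were highest in MS1210.1, an ASQC, and lowest in MS1166.1, an AC(NST), where each had 3 counts.

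Btc did not share the low value in MS1166.1. Its normalized counts were 184, 146, 209, 66.7 and 126 in MS1213.1, MS1163.1, MS1163.2, MS1218.2 and MS1155.3. The other group had 305 (MS1210.1), 297 (MS1166.1) and 159 (MS1349.1). MS1166.1 was thus second highest for Btc and at the floor for the other genes of the cluster. By amplification, Btc had a log2 fold change of -0.77 (SE 0.41), Ereg of -0.82 (SE 0.92) and Areg of -0.40 (SE 0.85), with adjusted p-values of 0.294, 0.620 and 0.805 in edgeR. The direction for Areg and Ereg rested on single tumours: without MS1210.1 the values were 0.57 and 0.55.

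**Figure D3:**
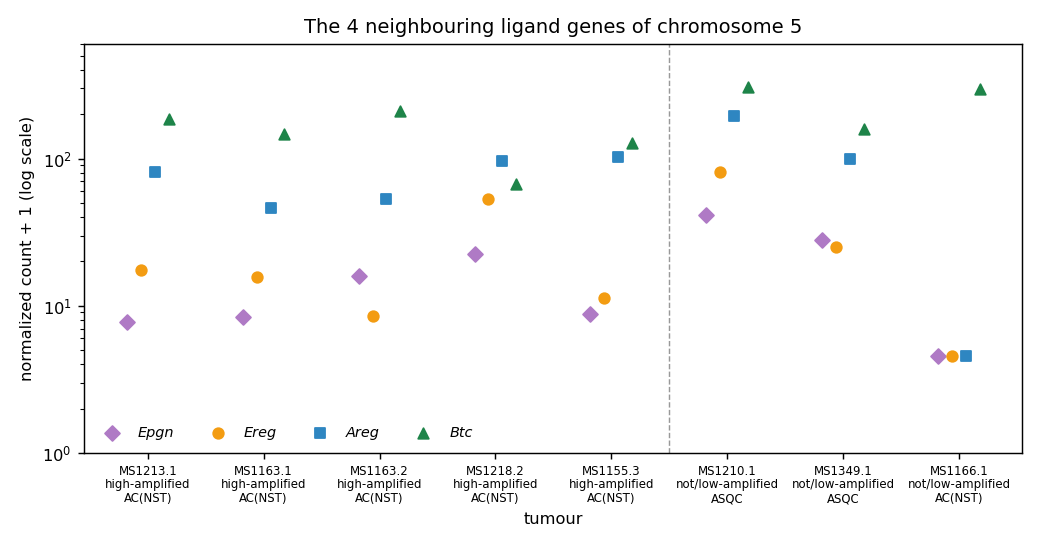
Normalized count + 1 (vertical axis, log scale) of the 4 neighbouring ligand genes of chromosome 5 in each of the 8 epithelial tumours (horizontal axis), with a dashed line dividing high-amplified (left) from not/low-amplified tumours. In MS1166.1, at the right, Epgn, Ereg and Areg all sit at 3.57 normalized counts while Btc is at 297.

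For histotype, the 2 ASQC tumours were set against the 6 AC(NST) tumours. No ligand was called by edgeR in this comparison, where 0.236% of all genes were called, and 1 of the 9 tested had an unadjusted p under 0.05, as did 8.72% of all genes. This was Nrg2, with 9.14 and 8.04 normalized counts in the ASQC tumours and between 26.2 and 656 in the AC(NST) tumours. The ranges did not overlap, as for 4.98% of genes in this direction, and the nearest tumours were 2.86-fold apart. The log2 fold change was -5.33 (SE 1.16) with an adjusted p of 0.155 in edgeR, while DESeq2 called it, with an adjusted p of 2.32e-07, among 2.88% of all genes. Among not/low-amplified tumours alone (2 ASQC against MS1166.1, which is assumed to vary like them) it was -1.51 (SE 0.51), with an adjusted p of 0.257. The highest log2 fold changes among the ligands were those of Ereg, at 1.56 (SE 0.90), and of Areg, at 1.21 (SE 0.84), with adjusted p-values of 0.653 and 0.713. For Areg the ASQC tumours had 194 and 98.6 normalized counts, against at most 102 in the AC(NST) tumours. Limma called no ligand by histotype.

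For parity, the 5 parous were compared with the 3 virgin tumours. No ligand and no gene of the whole table (0%) was called by edgeR, 0 of the 9 ligands and 14.2% of all genes had an unadjusted p under 0.05, and limma called no ligand either. DESeq2 called 2.84% of all genes and 0 ligands. The smallest adjusted p among the ligands was 0.429, for Tgfa, at 727 ± 275 (SD, n = 5) normalized counts in parous and 1146 ± 362 (n = 3) in virgin tumours. Its log2 fold change was -0.65 (SE 0.37, 95% interval -1.48 to 0.18). Nrg2 had a log2 fold change of -1.78 (SE 1.14), and of -0.53 (SE 0.47) among high-amplified tumours alone, with adjusted p-values of 0.476 and 0.744. For 4 of the 9 ligands the upper bound of the 95% interval lay under a log2 fold change of 1, so that a 2-fold higher level in parous tumours lay outside it. These were Nrg2, Egf, Tgfa and Hbegf. A 2-fold lower level also lay outside for Hbegf alone (-0.90 to 0.50). The lower bounds of Nrg2, Egf and Tgfa were -4.34, -3.22 and -1.48. The 3 comparisons share the same 8 tumours.

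**Figure D4:**
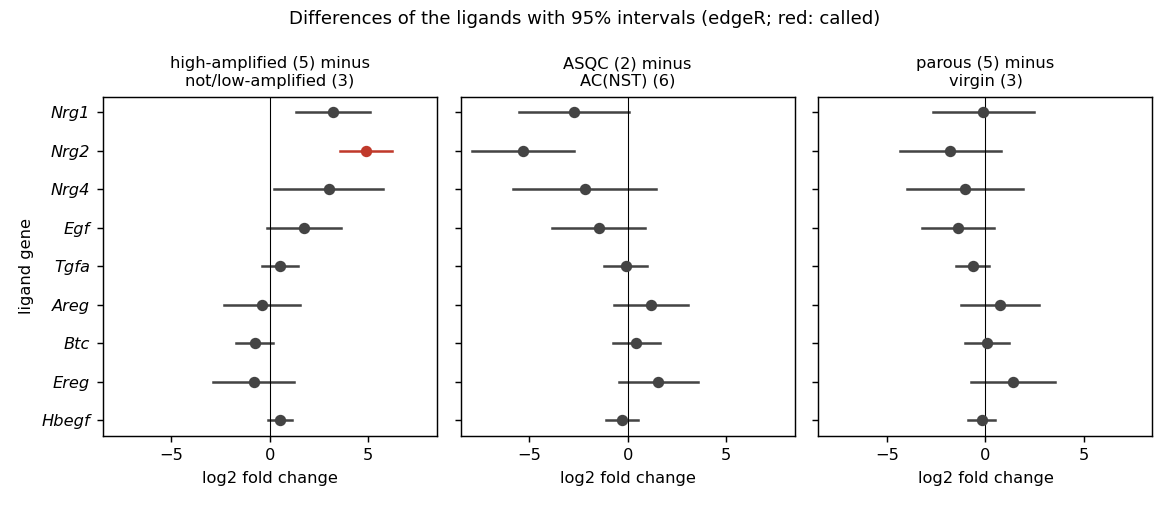
Log2 fold change (horizontal axis) with its 95% interval from edgeR for the 9 ligands tested, by amplification, histotype and parity, with the number of tumours per group in brackets. Nrg2 by amplification, in red at 4.89, is the only value called, and by parity every interval includes 0.

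The tumours MS1163.1 and MS1163.2, which carry the same mouse number, were set side by side. Nrg1 was 10.9-fold higher in MS1163.1, a distance reached in either direction by 1.15% of all genes tested, and its receptor gene Erbb4 was 10.7-fold higher. Egf was 3.10-fold and Nrg2 2.31-fold higher in MS1163.1. Tgfa (1.06-fold), Hbegf (0.880-fold) and Areg (0.864-fold) lay closer together. The median distance over all genes was 0.43 on the log2 scale. There is 1 library per tumour, and these ratios have no replicate check.

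In the sarcoma 5 of the 10 ligands lay below and 1 lay above every epithelial tumour. Nrg1 (5.58), Nrg2 (4.19), Tgfa (29.3), Btc (12.6) and Areg (0) were below the lowest epithelial tumour in normalized counts, and Hbegf was above the highest, at 674 against 524. Of all genes tested 20.8% were below and 21.7% above in the same way. There were 0 counts of Areg, with an exact 95% Poisson interval of up to 5.15 normalized counts. Its level in the sarcoma thus cannot be told from the 3.57 of MS1166.1 at this depth. Nrg2 was itself at 3 counts, the floor, and Nrg1 had 4 counts. Their exact 95% Poisson intervals, which cover counting error only, reached up to 12.2 and 14.3 normalized counts and so overlapped those of the lowest epithelial tumours, at 8.04 and 11.9. For Tgfa, Btc and Hbegf, the other 3, the intervals of the sarcoma and the nearest epithelial tumour did not overlap. Tgfa had 21 counts, at 29.3 normalized against 419.9 in the lowest epithelial tumour. Egf, at 209, lay within the epithelial range of 13.4 to 258. Hbegf made up 82.3% of the ligand mRNAs of the sarcoma on the per-kb scale, and Egf 10.96%.

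Receptors for these ligands also differed in the sarcoma. Erbb3, the kinase-impaired neuregulin receptor, was at 28782 normalized counts, above the 3196 to 9733 of the epithelial tumours. Egfr, at 5164, and Erbb4, at 36.3, lay within the epithelial range. The mouse Erbb2 row was at 1177, below the lowest of 1532. The 5 Schwann cell markers described here (Sox10, Mbp, S100b, Foxd3 and Ngfr) summed to 30894 in the sarcoma, against 2361 to 9009 in the epithelial tumours, with none of the 5 at 0 in the sarcoma. Among them Mbp, a myelin protein gene, was at 14804 against at most 1691, and Foxd3, a neural crest factor gene, at 2437 against at most 4.63. Fibroblast markers (609768) and skeletal muscle markers (15146, over 5 genes with a row) were also above all epithelial tumours. Their part in the ligand levels was not tested. With 1 sarcoma there is no test.

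Genes that act with the ligands were described by lists of their roles. Of the other ligand genes, Cspg5, which encodes neuroglycan C, an Erbb3 ligand, was called by amplification, with 328 ± 75.9 (SD, n = 5) normalized counts in high-amplified and 20.9 ± 14.0 (n = 3) in not/low-amplified tumours. Its log2 fold change was 3.94 (SE 0.60) with an adjusted p of 0.0287 in edgeR. Every high-amplified tumour had at least 243 and every other epithelial tumour at most 29.2. Cspg5 lost its call in 10 of 21 alternatives, among them parous tumours alone, parity as a covariate (adjusted p-values of 0.328 and 0.1504 in edgeR) and each tumour left out except MS1218.2 and MS1166.1 (adjusted p 0.0808 without MS1210.1). Epgn had a log2 fold change of -1.02 (SE 0.76) with an adjusted p of 0.445, and did not overlap by histotype (5.3% of all genes in this direction), with 33.6 ± 9.23 (n = 2) in ASQC and 10.3 ± 6.56 (n = 6) in AC(NST) tumours.

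No receptor was called by edgeR in any comparison, and 2 of 4 had an unadjusted p under 0.05 by amplification (22.8% of all genes), both of which DESeq2 called (8.82% of all genes). These were Erbb2, at 5284 to 105019 normalized counts against 1532 to 2783, with a log2 fold change of 4.16 (SE 1.13) and an adjusted p of 0.0879, and Erbb4, at 3.27 (SE 1.44) with an adjusted p of 0.212. Reads on the Erbb2 row may come from the mouse gene or from NeuNT, which were not told apart here. Erbb3 had a log2 fold change of -0.34 (SE 0.33) and Egfr of -0.31 (SE 0.39), and their adjusted p-values were 0.563 and 0.652.

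Among 14 genes of ligand release, which hold the sheddases Adam10 and Adam17, the iRhom genes and Bace1, 0 were called by amplification in edgeR, DESeq2 or limma, and 0 had an unadjusted p under 0.05, against 22.8% of all genes. Their median log2 fold change was 0.29. The smallest p-values were those of Adam12 (0.97, SE 0.61), Bace1 (0.46, SE 0.30) and Adam19 (0.94, SE 0.65), with adjusted p-values of 0.368, 0.371 and 0.405.

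Of 35 receptor adaptors and transducers tested, 1 (2.86%) was called by amplification, against 0.921% of all genes, and 11 (31.4%) had an unadjusted p under 0.05, against 22.8%. Grb7, an adaptor that binds Erbb2 and is encoded beside it, had a log2 fold change of 3.82 (SE 0.45) with an adjusted p of 0.0175, and was not called in parous tumours alone, in AC(NST) tumours alone, with parity as a covariate or without MS1210.1 (adjusted p 0.0695). Shc4, at 4.19 (SE 0.93), and Nck2, at 0.98 (SE 0.31), had adjusted p-values of 0.0652 and 0.117, with groups that did not overlap (7.55% of all genes in this direction). The list had a median log2 fold change of 0.19. Of 18 inhibitors and turnover genes 1 was called, Spry4, a feedback inhibitor of the Ras and ERK pathway, at 3.28 (SE 0.48) with an adjusted p of 0.0283, and 4 (22.2%) had an unadjusted p under 0.05, against the same 22.8%. Spry4 lost its call in 10 of 21 alternatives, among them parous tumours alone, parity as a covariate and 5 of the 8 fits without 1 tumour (adjusted p 0.0808 without MS1210.1). Spred2, at 0.83 (SE 0.27), and Cblc, at -0.79 (SE 0.25), also had groups that did not overlap (8.04% of all genes in the direction of Cblc), with adjusted p-values of 0.124 and 0.121. The median of this list was 0.35. By histotype and by parity 0 of the 73 genes of these lists were called in edgeR. At an unadjusted p under 0.05, 12 (16.4%) were found by histotype (2 other ligands, 1 receptor, 5 adaptors and 4 inhibitors), against 8.72% of all genes. By parity 9 (12.3%) were found (1 release gene, 5 adaptors and 3 inhibitors), against 14.2% of all genes. DESeq2 called 5 of 72 by histotype (6.94%, against 2.88% of all genes), Erbb2, Cspg5, Grb7, Shc4 and Spry4, all lower in ASQC tumours, and 1 of 72 by parity, Adam8 (1.39%, against 2.84%).

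The genes whose pattern over the 8 epithelial tumours was most like that of Nrg2 were Vwc2, Papln and Grb7. Their median-centred log2(normalized count + 1) differed from that of Nrg2 by 0.48, 0.57 and 0.66 on average, against a median of 2.11 over all genes tested. They were picked as the 3 closest genes, so small distances and a split by amplification follow from the choice. Vwc2, which encodes a secreted BMP antagonist, had 69.5 ± 39.2 (SD, n = 5) normalized counts in high-amplified tumours and 0 counts in all 3 others. It thus passed the filter through the high-amplified tumours alone. Papln, which encodes the matrix protein papilin, had 17306 ± 7410 against 282 ± 87.8, and Grb7 9395 ± 2690 against 675 ± 279. The other neuregulins were no closer to Nrg2 than 1.76, for Nrg4. Of these 5 Schwann cell markers 1 of 4 tested was called higher in high-amplified tumours: S100b, with a log2 fold change of 5.63 (SE 1.05) and an adjusted p of 0.0433 in edgeR, from at least 114 normalized counts in these tumours against at most 14.8. S100b lost its call in 11 of 21 alternatives, among them 7 of the 8 fits without 1 tumour, with adjusted p-values of up to 0.287. The direction of S100b was not shared by all of these markers. Mbp had between 787 and 1199 normalized counts in high-amplified tumours, against between 1141 and 1691. Ngfr ranged from 4.82 to 42.5 there, while the ASQC tumours had 117 and 271 and the remaining not/low-amplified tumour had 0. Sox10 tended the way of S100b, at 2208 to 6699 against 666 to 2852, and was the largest part of each high-amplified sum. The 5 markers summed to between 3230 and 9009 in high-amplified and between 2361 and 4269 in not/low-amplified tumours. Foxd3 was at 0 in tumours of both groups. Their part in the Nrg2 difference was not tested.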

How the data were processed

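RNA of 9 tumours was depleted of ribosomal RNA, made into libraries with a directional kit and sequenced in pairs. The authors aligned reads with STAR to mouse build 38, at most 3 mismatches, unique positions only and settings for unstranded data. They deposited HTSeq counts per gene for all 9 tumours, and for the 8 epithelial tumours a signal, which equals these counts divided by 1 DESeq2 median-of-ratios size factor per tumour. Per the labels FastQC and Cufflinks were also used. The strand option of the counting is not given in the sources used here, so reads of genes on opposite strands of one place cannot be told apart. By GENCODE M21 (GRCm38), exons of Nrg1, Nrg4, Egf, Tgfa and Ereg overlap those of another gene. The sarcoma was scaled by its own median-of-ratios factor against the 8.

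Counts were tested with edgeR 4.0.16 under R 4.3.3 (TMM, glmQLFit, glmQLFTest, no covariates, Benjamini-Hochberg over all 14007 genes that reached 10 counts in 3 or more epithelial tumours). The study used DESeq2, which was an alternative here (1.42.0), as was limma 3.58.1 on log2 of the signal plus 1. Other alternatives were other scalings and filters, the 2 tumours of 1 mouse number summed, parity as a covariate, subsets by parity, histotype and amplification, and each tumour left out in turn. The longest transcript as the length, and MS1218.2 left out together with MS1210.1 or with MS1213.1, were added after seeing the data. Tables were handled with Python 3.11.15 and pandas 2.3.3 and figures drawn with matplotlib 3.10.9. The tests were run on simulated data. There the estimates were checked for edgeR, DESeq2 and limma. False calls were counted for each of these tools, but a limit on their number was set only for edgeR and limma. DESeq2 was held to no such limit, and its number of false calls is not reported here. Each tumour was 1 replicate, including the 2 of mouse number MS1163, so p-values measure the spread between tumours and not between mice. With these 2 summed, Nrg2 and Grb7 kept their calls by amplification, each with an adjusted p of 0.043 in edgeR. Cspg5, Spry4 and S100b lost theirs, with adjusted p-values of 0.064, 0.056 and 0.080. Count floors cover counting error only. SD is given after the sign ±.

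The members and gene lists were chosen with earlier results of these data known. Named were the 10 ligands, every receptor and other ligand, list genes called by edgeR, the 3 genes per list with the smallest p by amplification, and the 3 genes most like the called ligand over the 8 tumours. Genes that only DESeq2 called, and S100b, Mbp, Foxd3 and Ngfr, were named after their values were seen. Some markers of the lists are not reported here. The authors' FPKM values and the rat NeuNT sequence were not used here.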

Additional observations from a re-analysis of the deposited data

Results flagged for a closer look

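In 30 sets of 5 or 6 tumours (each of the 10 ligands within the high-amplified, the AC(NST) and the parous tumours), 3 had a single tumour far from the others. The limit used is passed by about 1 in 20 independent sets of normally distributed values. These sets share tumours and hold untransformed normalized counts, so that rate does not apply to them. Nrg4 in MS1155.3, at 132.7 normalized counts, lay above the other 4 parous epithelial tumours by 0.813 of the whole range. Ereg in MS1218.2, at 51.8 normalized counts, lay above the other high-amplified tumours by 0.799 of the range and above the other AC(NST) tumours by 0.735. MS1218.2 also had the highest fibroblast, endothelial and macrophage marker sums of the 8 epithelial tumours, and their part in the Ereg value was not tested.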

How the results depend on the processing

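Ligands called by amplification numbered 1 in edgeR, and 3 by DESeq2. No ligand was called in parous tumours alone, in AC(NST) tumours alone or with parity as a covariate (0 in each), and leaving out each tumour in turn gave between 0 and 1, the 0 without MS1210.1. By histotype 0 became 1 with DESeq2, and between 0 and 1 with each tumour left out, the 1 (Nrg2, adjusted p 0.00917 in edgeR) without MS1166.1, where the groups equal those of amplification. By parity the count was 0 in every fit. Of the genes that act with the ligands, edgeR called 3 of 73 (4.11%, against 0.921% of all genes), namely Cspg5, Grb7 and Spry4. DESeq2 called 7 of 74 (9.46%, against 8.82% of all genes). In edgeR the number was 1 with the 2 tumours of 1 mouse number summed, and 0 in parous tumours alone or with parity as a covariate. It was 1 without MS1218.2 and MS1210.1 together, 5 without MS1218.2 and MS1213.1 together, and between 0 and 5 with each tumour left out. Over all genes, the 129 calls by amplification became 1591 with DESeq2, 189 with limma, 229 without a filter, 31 with the summed tumours, 1255 without MS1218.2, 527 without MS1218.2 and MS1213.1 together and 1 without MS1210.1, and the cause was not tested. The 5 ligands below and 1 above the epithelial tumours in the sarcoma were so on the CPM scale too.

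The log2 fold change of Nrg2 by amplification was between 3.95 and 5.57 in the 21 alternatives, and its adjusted p between 1.1e-17 and 0.239. Directions turned for uncalled ligands only. By amplification, Areg became 0.70 with limma, 0.041 in parous tumours alone, 4.32 in AC(NST) tumours alone, 0.0021 with parity as a covariate and 0.45 without MS1218.2 and MS1210.1 together, and lay between -0.96 and 0.57 with each tumour left out. Ereg became 2.45 in AC(NST) tumours alone, and lay between -1.54 and 0.55 with each tumour left out. By histotype, not/low-amplified tumours alone, with MS1166.1 as the single AC(NST) tumour, gave -0.28 for Btc, 0.35 for Egf, 0.51 for Hbegf, 0.86 for Nrg1 and 1.09 for Tgfa. Tgfa also became 0.018 with limma, 0.063 with the summed tumours and 0.34 in parous tumours alone. With each tumour left out Btc lay between -0.14 and 0.84, Hbegf between -0.69 and 0.027 and Tgfa between -0.39 and 0.13. By parity, high-amplified tumours alone gave -0.88 for Btc, 0.15 for Hbegf, 1.08 for Nrg1 and 0.031 for Nrg4, and limma gave -0.11 for Btc. With each tumour left out Btc lay between -0.13 and 0.29 and Nrg1 between -1.12 and 0.96. These changes of direction have no tested cause. No paired analysis was possible because the labels give no replicate numbers that groups share. Low counts limit Nrg3, Nrg4 in MS1166.1 and MS1210.1, and Ereg and Areg in MS1166.1.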
